A study of Mus musculus with 20 samples.

Results

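B cells sorted from the spleen of mice labelled March1-/- were compared with B cells sorted from wild type (WT) mice, in 8 of the 20 libraries of the series. The 4 March1-/- and 4 WT libraries were chosen by their genotype and cell type labels, and no measured value entered the choice. Beside them stand 4 March1-/- and 4 WT libraries of cDC1, the type 1 conventional dendritic cells of spleen that present antigen to CD8 T cells. All mice were C57BL/6 and were taken on postnatal day 21, and the sorted cells had a stated purity of 95 to 99%. The structure of the mutant March1 allele, the number of mice behind a library and whether each library came from its own animals are not stated in the labels. The p-values below therefore stand against the spread between libraries, part of which may be technical. Levels are CPM (counts relative to the TMM-scaled library size), and differences are log2 fold changes of March1-/- over WT ± SE. A gene is said to have risen, to have fallen or to have passed the test where edgeR's Benjamini-Hochberg adjusted p over all genes tested was under 0.05.

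MARCH1 is a membrane-bound ubiquitin ligase that marks MHC class II and CD86 for removal from the surface of antigen-presenting cells, so it acts on proteins after they are made. Splenic B cells arrive from bone marrow as immature, transitional cells and mature into follicular B cells, which recirculate through B cell follicles, or into marginal zone B cells, which stay at the border of the white pulp and respond to blood-borne antigen. Germinal centre B cells arise from them after antigen meets T cell help, when the antibody genes are mutated and switched to other classes.

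The March1-/- libraries held 28989429, 25446015, 25219743 and 22789679 counts in genes, and the WT libraries held 32751804, 31373037, 30603129 and 29627575. Every March1-/- library was thus shallower than every WT library, and a count of 3 corresponds to 0.0916 to 0.1316 CPM over the 8. The first principal component of the 8 libraries held 32.6% of the variance and placed the March1-/- libraries at −29.4 to −13 and the WT libraries at 12.2 to 23.2. The next component held 18% and set March1-/- library 4 apart, at −33.4 against −3.67 to 17.2 in the other 7. Ms4a1, which encodes the B cell antigen CD20, was at 1798, 1922, 1688 and 1596 CPM in March1-/- and 1905, 1820.3, 1824 and 1679.9 CPM in WT B cells (−0.05 ± 0.08, edgeR adjusted p = 0.854), so both groups carried the RNA of the labelled cell type. March1 (ENSMUSG00000036469, chr8:65617900-66471637 in GRCm38, plus strand) was counted at 149, 171, 149 and 134 CPM in March1-/- and 148, 159, 144 and 137 CPM in WT B cells (0.04 ± 0.07, edgeR adjusted p = 0.89). The B cell groups overlapped. In cDC1 March1 was lower, at 253 to 272 CPM in March1-/- and 322 to 380 CPM in WT (−0.38 ± 0.07, edgeR adjusted p = 0.00306). Since the mutated part of the gene is not known here, a whole-gene count is no check of the genotype.

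Of 18710 genes tested, 890 passed the test between the B cell groups (4.76%), 433 of them higher (2.31%) and 457 lower (2.44%) in March1-/- B cells. The differences were mostly small. The median size among the 890 was 0.54 on the log2 scale, and 178 genes (0.951%) differed at least 2-fold. All 4 March1-/- libraries lay on the same side of all 4 WT libraries for 2123 genes (11.3%), of which 1107 were higher (5.92%) and 1016 lower (5.43%). Chromosome 8, which carries March1, held 96 of the called genes among 964 tested (9.96%, 49 higher and 47 lower). The other chromosomes together held 794 among 17746 (4.47%, 384 higher and 410 lower). Leaving out March1-/- library 1 or 3, or WT library 1 or 4, brought the total to 590, 574, 591 and 592 genes, and the other 4 omissions left 742 to 879.

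**Figure D1:**
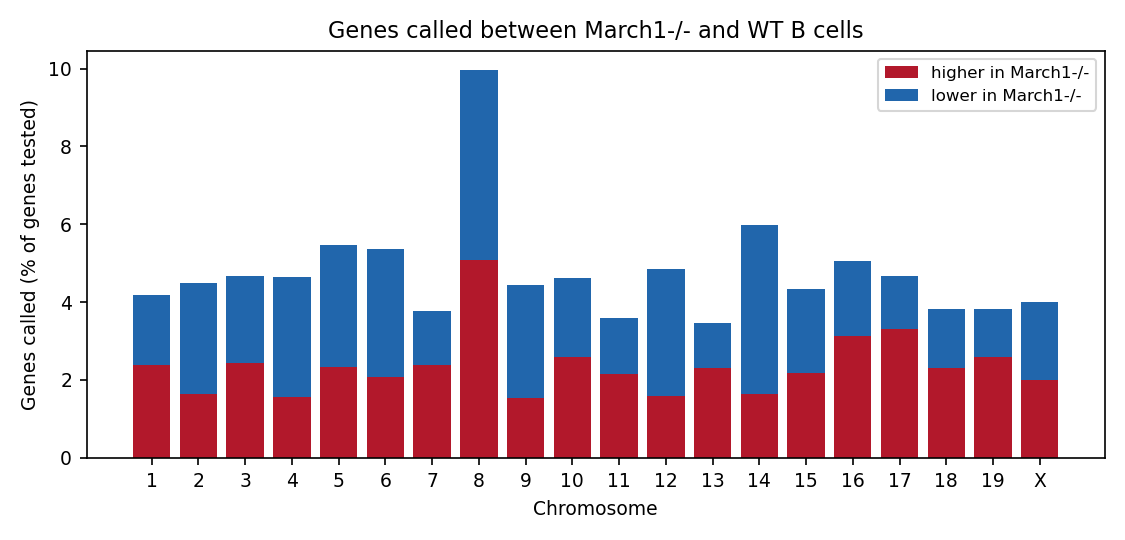
Share of tested genes that passed the test between March1-/- and WT B cells on each autosome and the X chromosome (bars, % of genes tested, stacked as higher and lower in March1-/-). Chromosome 8 stands at 9.96% and the other drawn chromosomes at 3.45 to 5.97%. The Y chromosome, with 5 of 11 genes called, and the mitochondrial genome, with 0 of 36, are not drawn.

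Genes of immature B cells were higher in March1-/- B cells. Of 16 genes listed for immature and transitional B cells, 10 were abundant enough to be tested, 7 rose, none fell and 3 did not pass the test. Their median log2 fold change was 0.86, against −0.01 over all genes tested, of which 2.31% rose. The 6 left untested by the count filter were Rag1, Rag2, Vpreb1, Vpreb2, Igll1 and Erg, which are genes of earlier stages in bone marrow. In bulk RNA, a changed number of cells of a type and a changed amount of RNA per cell cannot be told apart.

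Cd93 (chr2:148436640-148443563), whose protein AA4.1 marks transitional B cells, was at 30.9, 27.1, 38.8 and 52.5 CPM in the March1-/- libraries, against 14.8, 17.97, 16.96 and 14.3 CPM in the WT libraries (1.22 ± 0.25, edgeR adjusted p = 0.00525). The groups did not overlap, and March1-/- library 4 was the highest. Vpreb3 (chr10:75943057-75949657), which encodes a protein that binds immunoglobulin light chains in immature B cells, was at 44.1, 38.6, 44.1 and 50.2 CPM in March1-/- B cells, against 25.4, 27.1, 24.1 and 21.4 CPM in WT B cells (0.85 ± 0.10, edgeR adjusted p = 1.67e-05). Again the groups did not overlap.

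The promoter of Vpreb3 is shown because it holds 1 match to the octamer ATTTGCAT, the element bound by the transcription factors Oct-1 and Oct-2. The window runs from 250 bases before the RefSeq start to 50 after it, is chr10:75948050-75948349 on the plus strand of GRCm38.p6, and has the octamer in capitals. Both strands were searched, and 570 of the 32851 promoter windows in the RefSeq table (1.74%) held the same letters.
Vpreb3 promoter: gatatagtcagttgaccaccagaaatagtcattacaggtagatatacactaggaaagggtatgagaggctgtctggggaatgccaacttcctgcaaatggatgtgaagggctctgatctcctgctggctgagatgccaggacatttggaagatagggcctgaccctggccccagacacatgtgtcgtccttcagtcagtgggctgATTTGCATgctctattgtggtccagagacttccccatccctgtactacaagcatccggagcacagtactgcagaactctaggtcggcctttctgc

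Myb, a transcription factor of progenitors, was at 60.05, 47.7, 67.3 and 90.7 CPM in March1-/- and 37.1, 34.9, 32.5 and 31.95 CPM in WT B cells (0.96 ± 0.20, edgeR adjusted p = 0.00783). The transcriptional repressor gene Gfi1 was at 18.02, 10.4, 16.1 and 19.7 CPM in March1-/- and 8.88, 7.63, 7.59 and 8.18 CPM in WT B cells (0.99 ± 0.23, edgeR adjusted p = 0.0131), and like Myb it did not overlap between the groups. Sox4 (0.87) and Lef1 (0.87), transcription factors of early lymphocytes, and Il7r (0.75), the receptor of the growth factor IL-7, rose as well (edgeR adjusted p = 0.0325, 0.018 and 0.0361, up to 0.115, 0.077 and 0.143 with 1 library left out). Cd24a had a log2 fold change of 0.21 ± 0.08, Dntt of −0.83 ± 0.53 and Bmyc of −0.03 ± 0.11, and none of them passed edgeR's test. Without March1-/- library 4, or without WT library 3, 4 of the 7 rises were left.

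Lef1, Il7r and Sox4 are also expressed by T cells, and the summed level of 13 T cell genes was 95.5 to 119 CPM in March1-/- B cells and 73.9 to 90.9 CPM in WT B cells, without overlap. None of the 13 passed edgeR's test (4 at an unadjusted p under 0.05, against 15.7% of all genes tested; DESeq2 called 2 higher and limma-voom 1). Of the 13 genes, 11 had a positive log2 fold change. The part of T cell RNA in the rise of Lef1, Il7r and Sox4 was not tested.

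**Figure D2:**
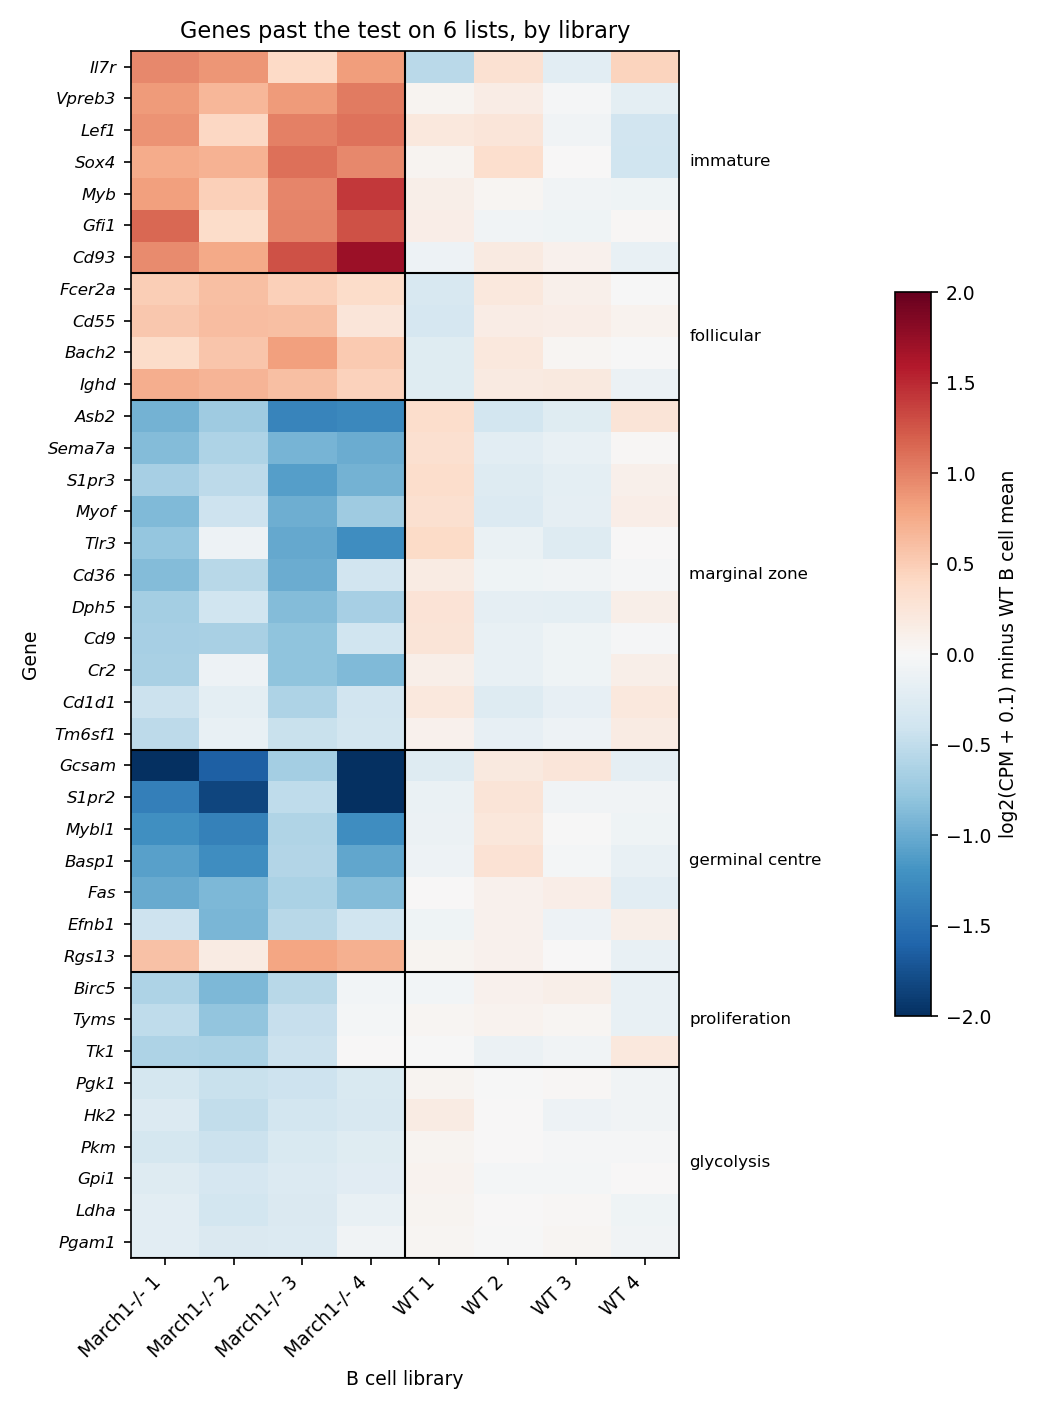
Log2(CPM + 0.1) minus the WT B cell mean (colour scale, −2 to 2) for genes that passed the test on 6 lists (rows, grouped by list) in the 4 March1-/- and 4 WT B cell libraries (columns). Immature and follicular genes are red in March1-/- libraries, marginal zone, germinal centre, proliferation and glycolysis genes are blue with the exception of Rgs13, and the proliferation genes of March1-/- library 4 are close to the WT mean.

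Germinal centre genes were lower in March1-/- B cells. Of 10 genes tested, 7 fell, 1 rose and 2 did not pass. The median log2 fold change was −0.94, against −0.01 over all genes tested, of which 2.44% fell. The same number fell with any 1 of the 8 libraries left out. Gcsam, a signalling adaptor of germinal centre B cells, was at 1.08, 1.43, 2.86 and 0.83997 CPM in March1-/- and 3.86, 5.32, 5.501 and 4.07 CPM in WT B cells (−1.59 ± 0.22, edgeR adjusted p = 9.21e-05). S1pr2, the sphingosine-1-phosphate receptor that confines cells to germinal centres, was at 2.69, 1.91, 4.97 and 1.68 CPM in March1-/- and 6.504, 8.57, 6.79 and 6.76 CPM in WT B cells (−1.34 ± 0.25, edgeR adjusted p = 0.00239). In both genes the groups did not overlap, and March1-/- library 3 was the highest of its group.

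Mybl1, which encodes the transcription factor A-Myb of dividing germinal centre cells, fell to 4.21 ± 1.11 CPM in March1-/- B cells, against 9.03 ± 1.03 CPM in WT B cells (SD, n = 4 each; −1.1, edgeR adjusted p = 0.00357). The death receptor gene Fas fell to 4.39 ± 0.4902 CPM in March1-/- B cells, against 8.01 ± 0.826 CPM in WT B cells (SD, n = 4 each; −0.87, edgeR adjusted p = 0.000763). Basp1 (−1.02) and the ephrin gene Efnb1 (−0.57) fell as well. Rgs13, a regulator of chemokine receptor signalling, rose (0.58 ± 0.15, edgeR adjusted p = 0.0251), and this call was lost without March1-/- library 1, 3 or 4 or WT library 1, 3 or 4. Bcl6, the master regulator of germinal centre cells that follicular cells also transcribe, had a log2 fold change of 0.12 ± 0.18, and the DNA glycosylase gene Neil1 one of −0.11 ± 0.10. Off the list, Nuggc, which encodes a nuclear GTPase of germinal centre B cells, was among the largest falls of the whole comparison, at 1.67, 1.65, 2.93 and 1.52 CPM in March1-/- and 4.06, 6.52, 5.62 and 4.36 CPM in WT B cells (−1.401 ± 0.27, edgeR adjusted p = 0.00238).

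Some of these genes are also transcribed by cDC1, the other cell type of the study. In WT cDC1 Gcsam stood at 252 to 289.9 CPM, Basp1 at 39.6 to 41.8 CPM and S1pr2 at 9.86 to 11.4 CPM, whereas Nuggc stood at 0.0736 to 0.163 CPM. The summed level of 14 cDC1 genes was 1172 to 1305 CPM in March1-/- B cells and 1313 to 1423 CPM in WT B cells, against 15741 to 18097 CPM in WT cDC1. Of the 14, only Flt3 fell (−0.95 ± 0.16, edgeR adjusted p = 0.000709) and none rose. The defining markers were near the bottom of the range, with Xcr1 at 1.41 to 2.16 CPM in March1-/- and 1.02 to 1.503 CPM in WT B cells and Clec9a at 1.34 to 2.12 CPM in March1-/- and 0.871 to 3.41 CPM in WT B cells. The part of cDC1 RNA in the fall of Gcsam, Basp1 and S1pr2 was not tested.

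Of the switched immunoglobulin heavy chain transcripts, Ighg2b and Ighg3 fell. Ighg2b was at 68.7, 64.4, 114 and 49.9 CPM in March1-/- and 112, 183, 218 and 149 CPM in WT B cells (−1.15 ± 0.23, edgeR adjusted p = 0.00507), with March1-/- library 3 above WT library 1. Ighg3 was at 67.3, 58.3, 85.7 and 67.4 CPM in March1-/- and 89.8, 178, 114 and 98.9 CPM in WT B cells (−0.79 ± 0.18, edgeR adjusted p = 0.0111). Both calls were lost when the 8 B cell libraries were fitted without the other 12 (edgeR adjusted p = 0.115 and 0.136). Ighg2c (−1.21 ± 0.60, edgeR adjusted p = 0.348), Igha (−1.35 ± 0.42, edgeR adjusted p = 0.0923) and Jchain (−0.89 ± 0.30, edgeR adjusted p = 0.124) did not pass the test, nor did Ighg1 (−0.19 ± 0.26, edgeR adjusted p = 0.814).

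Ighm, which encodes the IgM heavy chain, was at 7348 to 7840.04 CPM in March1-/- and 7158 to 8229 CPM in WT B cells and was not called (−0.04 ± 0.07, edgeR adjusted p = 0.875). Ighd, the IgD heavy chain of naive cells, rose to 1487, 1451, 1369 and 1239.6 CPM in March1-/- B cells, against 761, 1017, 1030.3 and 827 CPM in WT B cells (0.61 ± 0.11, edgeR adjusted p = 0.00194). The lambda light chain genes Iglc2 (0.47 ± 0.11, edgeR adjusted p = 0.00846), Iglv2 (0.53 ± 0.12, edgeR adjusted p = 0.00993) and Iglv3 (0.34 ± 0.08, edgeR adjusted p = 0.0201) rose, and Iglv3 passed in 4 of the 8 omissions of a library. Of 208 variable segments tested, 3 were higher and 13 lower (7.69% called, against 4.76% of all genes tested). The 105 heavy chain segments gave 1 rise, Ighv12-3, and 8 falls (8.57%). The 98 kappa segments gave 5 falls and no rise (5.1%), a share near that over all genes. Reads of near-identical segments can be split among them, so single segments are uncertain. Among 10 plasma cell genes none was called by edgeR (4 at an unadjusted p under 0.05, none with DESeq2, 1 with limma-voom).

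Marginal zone genes were lower and follicular genes higher in March1-/- B cells. Of 18 marginal zone genes 11 fell and 7 did not pass the test (median log2 fold change −0.60), and of 9 follicular genes 5 rose and 4 did not pass (median 0.47). Over all genes tested 2.44% fell and 2.31% rose. Asb2 was at 18.1, 21.3, 13.99 and 14.2 CPM in March1-/- and 44.8, 26.96, 29.6 and 41.6 CPM in WT B cells (−1.08 ± 0.14, edgeR adjusted p = 7.62e-05). S1pr3, a sphingosine-1-phosphate receptor gene on the marginal zone list, was at 73.9, 81.7, 54.8 and 60.8 CPM in March1-/- and 149.997, 98.4, 102 and 126 CPM in WT B cells (−0.81 ± 0.12, edgeR adjusted p = 0.000213). Neither gene overlapped between the groups.

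Cr2, the complement receptor CD21 that marginal zone cells carry in large amounts, was at 1329, 1939, 1199 and 1129.7 CPM in March1-/- and 2277, 1892, 1957 and 2254 CPM in WT B cells (−0.58 ± 0.14, edgeR adjusted p = 0.0192). March1-/- library 2 lay within the WT range, and the call was lost without March1-/- library 1, 3 or 4 or WT library 1 or 4 (edgeR adjusted p up to 0.0869). The same library had the highest March1-/- levels of Tlr3, S1pr3, Asb2, Sema7a, Myof and Dph5. Among follicular genes Fcer2a, which encodes the IgE receptor CD23 and lies on chromosome 8, was at 460.03, 498, 454 and 423 CPM in March1-/- and 263, 381, 353 and 325 CPM in WT B cells (0.47 ± 0.11, edgeR adjusted p = 0.00861). Bach2, a repressor of plasma cell fate, was at 115, 131, 158 and 129 CPM in March1-/- and 75.3, 103, 91.3 and 89.04 CPM in WT B cells (0.57 ± 0.13, edgeR adjusted p = 0.0142, up to 0.0693 with 1 library left out). Counts of 7 falls were left among marginal zone genes without March1-/- library 1 or 3, and 2 rises among follicular genes without March1-/- library 3 or WT library 1.

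Listed or not, the 10 largest rises off chromosome 8 that held in every omission of a library were mostly low-abundance genes. They were protein coding, at 5 CPM or more in the higher group and free of overlap between the groups. The largest was Wnt10a (chr1:74791516-74804179), a secreted Wnt ligand, at 17.3, 9.49, 16.1 and 19.3 CPM in March1-/- and 4.5005, 5.1996, 5.07 and 3.57 CPM in WT B cells (1.76 ± 0.19, edgeR adjusted p = 2.31e-06). Cplx2, a complexin that regulates vesicle fusion, was at 7.53, 5.66, 10.1 and 13.6 CPM in March1-/- and 2.61, 3.28, 2.64 and 2.65 CPM in WT B cells (1.72 ± 0.24, edgeR adjusted p = 0.000127). Wdfy1, an adaptor of endosomal Toll-like receptors, was at 60.6, 58.05, 65.7 and 79.3 CPM in March1-/- and 29.4, 26.6, 28.7 and 33.2 CPM in WT B cells (1.16 ± 0.12, edgeR adjusted p = 1.86e-06). It also rose in March1-/- cDC1 (1.07 ± 0.12, edgeR adjusted p = 6.78e-06; B cells minus cDC1 0.09 ± 0.17).

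The other rises by this rule were 1810046K07Rik (1.69), the immunoglobulin superfamily member Igsf5 (1.57), the calmodulin-binding peptide gene Pcp4 (1.51), Nyx (1.42), the vasoactive peptide gene Adm (1.303), Cd93 and Pstpip2 (1.18), an F-BAR protein of the cell cortex. Of the 10 genes, 9 had their highest March1-/- level in library 4. The entries of Igsf5 and Pcp4 share 31.2% and 23.7% of their exon bases with an entry named Igsf5 on the same strand, so their counts may not be separate measurements. Pstpip2 was at 7.35 to 16.5 CPM in March1-/- and 4.15 to 5.13 CPM in WT B cells, whereas in cDC1 it was at 16.4 to 20.8 CPM in March1-/- and 19.5 to 22.9 CPM in WT, and the difference between the cell types passed the interaction test (1.33 ± 0.25, edgeR adjusted p = 0.004).

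**Figure D3:**
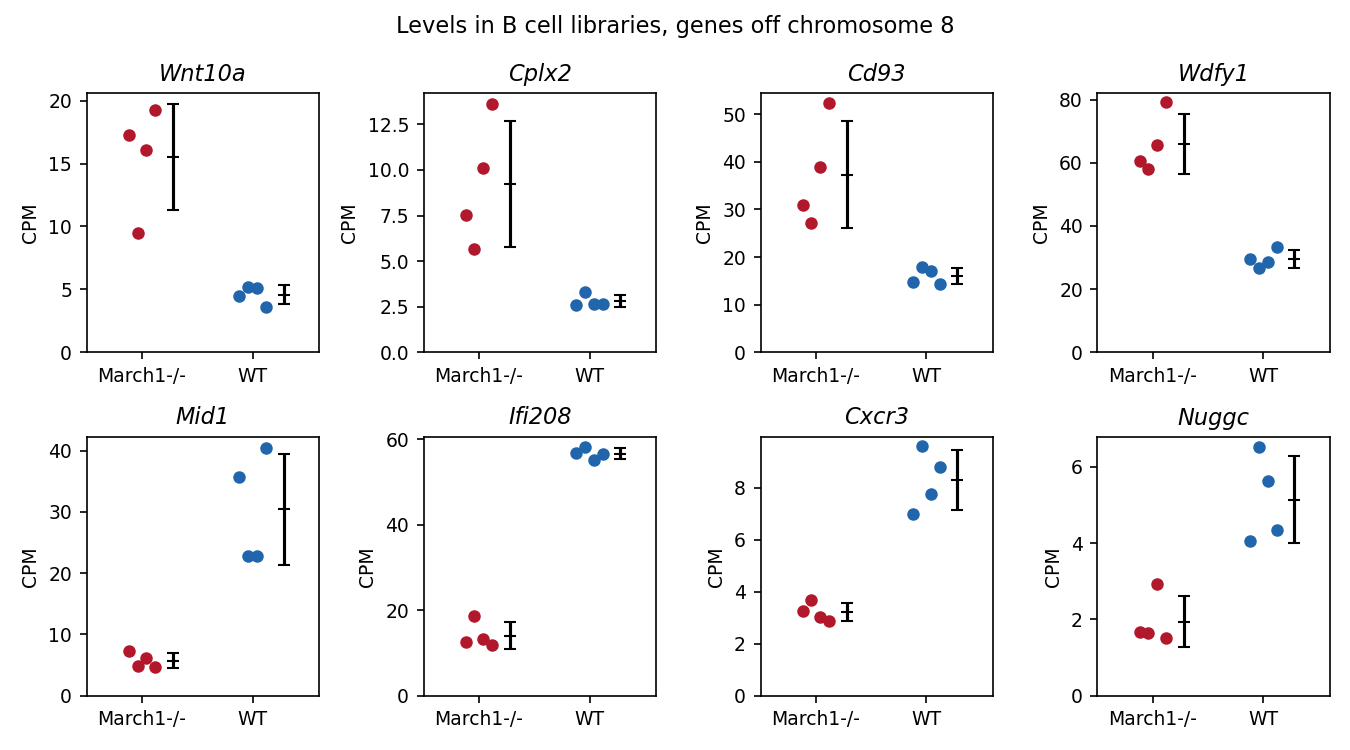
CPM of 8 genes off chromosome 8 in each March1-/- (red, left) and WT (blue, right) B cell library, with the mean and SD over 4 libraries (black bars). Wnt10a, Cplx2, Cd93 and Wdfy1 lie higher and Mid1, Ifi208, Cxcr3 and Nuggc lower in all 4 March1-/- libraries than in any WT library.

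Falls off chromosome 8 by the same rule were led by Mid1 and Ifi208. Ifi208 (chr1:173673675-173698395), a member of the interferon-inducible PYHIN family of DNA sensors, was at 12.5, 18.7, 13.2 and 11.96 CPM in March1-/- and 56.9, 58.2, 55.2 and 56.5 CPM in WT B cells (−2.01 ± 0.12, edgeR adjusted p = 2.23e-10). It fell in cDC1 too, at 0.428 to 0.599 CPM in March1-/- and 1.06 to 1.797 CPM in WT (−1.36 ± 0.25, edgeR adjusted p = 0.00219). It stood far lower in cDC1 than in B cells, and the summed level of 17 pan B cell genes was 449 to 536 CPM over the March1-/- cDC1 libraries, against 354 to 417 CPM over the WT cDC1 libraries. Ms4a1, a member of that list, was not higher, at 45.97 to 58.7 CPM in March1-/- and 56.1 to 60.9 CPM in WT cDC1 (−0.15 ± 0.08). The part of B cell RNA in the cDC1 difference of Ifi208 was not tested. Of 25 interferon-stimulated genes only Isg15 fell (−0.57) and only Irf7 rose (0.31), and neither call held in every omission of a library (edgeR adjusted p up to 0.0885 and 0.13). The median of that list was −0.02, and 4.76% of all genes tested were called.

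Cxcr3, the receptor of interferon-induced chemokines, was at 3.28, 3.68, 3.04 and 2.88 CPM in March1-/- and 6.998, 9.62, 7.77 and 8.81 CPM in WT B cells (−1.36 ± 0.12, edgeR adjusted p = 7.66e-08). In cDC1 it was at 28.9 to 36.8 CPM in March1-/- and 31.4 to 36.8 CPM in WT (−0.04 ± 0.09), and the genotype difference differed between the cell types (−1.33 ± 0.15, edgeR adjusted p = 1.49e-05). The part of cDC1 RNA in the B cell fall of Cxcr3 was not tested. Grip2, a scaffold protein gene, was at 1.77, 3.12, 2.75 and 2.3999 CPM in March1-/- and 8.59, 4.75, 5.53 and 7.39 CPM in WT B cells (−1.39 ± 0.19, edgeR adjusted p = 9.91e-05), and Tsga13, a gene named for its expression in testis, had a log2 fold change of −1.24 ± 0.23. S1pr2 and Nuggc were also among the falls, with Gm16867 and Gm47283, which are described with their neighbours below.

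Receptors that place B cells in the spleen changed in both directions. Of 19 positioning and chemokine receptor genes, 6 fell, 2 rose and 11 did not pass. Their median log2 fold change was −0.10, and 4.76% of all genes tested were called. Besides S1pr2, S1pr3 and Cxcr3, S1pr1, the receptor for exit into blood, was at 277, 298, 239 and 219 CPM in March1-/- and 443, 347, 328 and 327 CPM in WT B cells (−0.48 ± 0.11, edgeR adjusted p = 0.00753). Ccr6 fell by 0.55 ± 0.14 and the integrin gene Itgal by 0.31 ± 0.07 on the log2 scale, though neither call held in every omission (edgeR adjusted p up to 0.0812 and 0.0618). S1pr4 was the sphingosine-1-phosphate receptor gene that rose, at 48.8, 49.6, 56.1 and 42.04 CPM in March1-/- and 31.6, 38.5, 35.5 and 31.04 CPM in WT B cells (0.53 ± 0.09, edgeR adjusted p = 0.000907). Cxcr4, which draws cells to CXCL12, ranged from 76.4 to 274 CPM in March1-/- B cells, against 65.01 to 95.4 CPM in WT B cells, and did not pass the test (1.07 ± 0.42, edgeR adjusted p = 0.2).

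RNA of the proteins that MARCH1 acts on was at similar levels or slightly changed. Among 13 genes of MHC class II presentation 2 rose and none fell (median log2 fold change 0.03), and 4.76% of all genes tested were called. H2-Aa was at 2254 to 2613 CPM in March1-/- and 2311 to 2426 CPM in WT B cells (0.06 ± 0.09) and H2-Ab1 at 1547 to 1764 CPM in March1-/- and 1600.3 to 1672 CPM in WT B cells (0.03 ± 0.09). H2-Ob, a subunit of the H2-O protein that inhibits peptide loading, rose to 794, 765, 811 and 750.4 CPM in March1-/- B cells, against 572, 652, 652 and 647 CPM in WT B cells (0.31 ± 0.07, edgeR adjusted p = 0.00637). Cd86 fell to 38.2, 42.2, 35.6 and 42.5 CPM in March1-/- B cells, against 56.4, 49.5, 49.5 and 49.2 CPM in WT B cells (−0.37 ± 0.07, edgeR adjusted p = 0.00326), as the only called gene of 9 costimulatory and coinhibitory ligands. Of 8 MARCH family genes and 14 MHC class I genes none was called by edgeR, DESeq2 or limma-voom, and none had an unadjusted p under 0.05 in edgeR.

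The largest rise among presentation genes was Ifi30 (chr8:70762774-70766663, minus strand), which encodes GILT, the thiol reductase that opens disulphide bonds of antigens in lysosomes. Ifi30 was at 494, 482, 515 and 481 CPM in March1-/- B cells, against 163, 163, 155 and 141 CPM in WT B cells (1.67 ± 0.08, edgeR adjusted p = 9.78e-12). No other gene of this list moved by as much, and the groups were far apart. In cDC1, where March1-/- libraries stood at 482 to 542 CPM and WT libraries at 404 to 496 CPM, it did not pass the test (0.25 ± 0.08, edgeR adjusted p = 0.141), and the difference between the cell types did (1.42 ± 0.12, edgeR adjusted p = 1.67e-07). Ifi30 lies 4.29 Mb from March1 on chromosome 8, so it belongs with the chromosome 8 genes below. Its neighbour 6330537M06Rik, named here after its values were seen, (chr8:70766579-70768220) runs the other way from a start just inside the 5′ end of Ifi30 and rose as well, at 36.8, 40.6, 44.2 and 39.2 CPM in March1-/- and 18.9, 17.6, 17.9 and 16.4 CPM in WT B cells (1.18 ± 0.08, edgeR adjusted p = 3.35e-09). The entries overlap over 8.66% of the exon bases of Ifi30, on opposite strands, and the strand setting of the counting is not stated in the labels.

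The promoter of Ifi30 is shown because it holds the start of Ifi30 and bases near the start of 6330537M06Rik, and both genes rose. The window is chr8:70766614-70766913 of GRCm38.p6, printed from RefSeq on the minus strand, from 250 bases before the start of Ifi30 to 50 after it. The capitals mark its 1 match to TCACGTGA, the palindromic E-box bound by the lysosomal regulators TFEB and TFE3, found on a search of both strands and present in 320 of 32851 promoter windows (0.974%).
Ifi30 promoter: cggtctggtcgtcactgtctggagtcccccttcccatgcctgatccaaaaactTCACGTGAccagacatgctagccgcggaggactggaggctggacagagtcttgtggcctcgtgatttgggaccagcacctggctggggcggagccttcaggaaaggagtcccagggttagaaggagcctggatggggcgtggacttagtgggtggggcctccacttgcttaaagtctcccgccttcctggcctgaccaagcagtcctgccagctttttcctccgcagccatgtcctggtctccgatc

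Signalling genes changed in both directions. Of 27 B cell receptor signalling genes 2 rose and 1 fell (median log2 fold change 0.00), and 4.76% of all genes tested were called. At an unadjusted p under 0.05 edgeR gave 6 of the 27 higher and 4 lower, against 15.7% of all genes tested. DESeq2 called 5 higher and 1 lower, and limma-voom 3 higher and 1 lower. Vav3, a guanine nucleotide exchange factor, rose to 22.2 ± 1.29 CPM in March1-/- B cells, against 15.97 ± 1.15 CPM in WT B cells (SD, n = 4 each; 0.47, edgeR adjusted p = 0.000561). Pik3cd, a catalytic subunit of phosphoinositide 3-kinase, rose (0.27 ± 0.07, edgeR adjusted p = 0.0213, up to 0.0804 with 1 library left out), and the inhibitory Fc receptor gene Fcgr2b fell (−0.35 ± 0.07, edgeR adjusted p = 0.00307). Of 19 NF-kB pathway genes, Traf1, a target and adaptor of the pathway, fell to 56.7, 59.6, 48.3 and 41.9 CPM in March1-/- B cells, against 88.1, 79.4, 77.8 and 102 CPM in WT B cells (−0.75 ± 0.12, edgeR adjusted p = 0.000544). Nfkbia, its inhibitor, rose by 0.36 ± 0.08 (edgeR adjusted p = 0.012, and 0.0575 without March1-/- library 1).

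Among 14 Toll-like receptor genes and partners Tlr3, which lies on chromosome 8, 20.2 Mb from March1, fell (−0.74 ± 0.18) and is 1 of the 11 falls on the marginal zone list, and among 16 Notch pathway genes the target Hes1 fell (−0.34 ± 0.09). Of 28 B lineage transcription factors Bach2 and Tcf3 (0.24 ± 0.07) rose and none fell, and of 17 pan B cell genes Fcmr, the Fc receptor of IgM, rose (0.47 ± 0.12). Each of these calls was lost without 1 or more libraries (edgeR adjusted p up to 0.084 for Tlr3, 0.15 for Hes1, 0.154 for Tcf3 and 0.0774 for Fcmr). In the complement list, where C3 was at 3.603 to 6.397 CPM in March1-/- and 2.79 to 7.25 CPM in WT B cells, the regulator Cd55 rose (0.496) and the receptor genes Cr2 and Itgam (−0.58) fell. Of the Cd55, Cr2 and Itgam calls, Cd55 was lost without March1-/- library 3 or WT library 1 (edgeR adjusted p = 0.053 and 0.0621) and Itgam without March1-/- library 3 (edgeR adjusted p = 0.0719). Fgl2 fell on the list of CD11c+ T-bet+ B cells (−0.53 ± 0.11). Over all genes tested 4.76% were called, so the small counts on these lists are not read as results about the lists.

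Genes of glycolysis were slightly lower in March1-/- B cells. Of 19 tested, 6 fell and none rose, with a median of −0.21, and 18 of the 19 had a negative log2 fold change. Among all genes tested 2.44% fell. Pgk1, a glycolytic kinase, was at 147, 137, 139.5 and 152 CPM in March1-/- and 193, 186, 191 and 178 CPM in WT B cells (−0.38 ± 0.07, edgeR adjusted p = 0.00159). Pkm, pyruvate kinase, was at 281, 266, 289.7 and 305 CPM in March1-/- and 372, 359.6, 354 and 353 CPM in WT B cells (−0.33 ± 0.07, edgeR adjusted p = 0.00637). The summed level of the 19 genes was 2051 to 2223 CPM in March1-/- B cells and 2512 to 2654 CPM in WT B cells, without overlap. With RLE scaling, without the count filter, or without any 1 of March1-/- libraries 1, 2 and 3 and WT libraries 1, 2 and 3, only 3 falls were left, Hk2 (−0.37) and the 2 genes above being those called in all omissions.

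Proliferation genes differed among the March1-/- libraries. All 21 had a negative log2 fold change (median −0.33), and 3 passed the test, Birc5 (−0.51), Tyms (−0.43) and Tk1 (−0.404). Among all genes tested 4.76% passed. Mki67, which encodes the proliferation marker Ki-67, was at 161, 166, 222 and 261 CPM in March1-/- and 283, 288, 275 and 278 CPM in WT B cells (−0.47 ± 0.19, edgeR adjusted p = 0.2). The summed level of the 21 genes was 1325, 1160, 1457 and 1854 CPM in March1-/- B cells, against 1781, 1791, 1762 and 1654 CPM in WT B cells. March1-/- library 4 was thus the highest of all 8, and without it 17 of the 21 genes fell, whereas none did without March1-/- library 1, 2 or 3 or WT library 3.

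Of 19 genes of the unfolded protein response 2 fell, Pdia4 (−0.33) and Edem1 (−0.33). Of 22 cholesterol genes Mvd (−0.36), which lies on chromosome 8, 55.96 Mb from March1, and Idi1 (−0.35) fell. Of 16 immediate early genes Egr3 rose (0.53). None of these 5 calls held in every omission of a library (edgeR adjusted p up to 0.13, 0.0882, 0.0958, 0.162 and 0.136). With 4.76% of all genes tested called, such small counts are not read as results about the lists. The summed level of immediate early genes, which respond to handling, was 1404 to 2239 CPM in March1-/- and 1216 to 2080 CPM in WT B cells. Of 5 BAFF and APRIL genes none was called by edgeR (2 at an unadjusted p under 0.05, 1 with DESeq2 and 1 with limma-voom).

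Markers of other cells that a sort can carry over mostly did not pass the test. On the 9 lists of plasma cell, T cell, NK cell, cDC2, plasmacytoid dendritic cell, monocyte, neutrophil, erythroid and platelet genes edgeR called none of 81 list entries. A gene that stands on more than 1 of these lists is counted on each. Of the 81 entries, 14 had an unadjusted p under 0.05 (9 higher and 5 lower, and 15.7% of all genes tested had one), and DESeq2 called 3 higher and 1 lower and limma-voom 3 higher. Of 14 spleen macrophage genes Cd68 fell (−0.47, edgeR adjusted p up to 0.0982 with 1 library left out). Of 6 B-1 cell genes Itgam fell and none rose, and 4.76% of all genes tested were called. The median log2 fold change of these B-1 cell genes was 0.44, and at an unadjusted p under 0.05 edgeR gave 4 higher and 1 lower. Erythroid genes summed to 1792 to 5165 CPM in March1-/- and 2097 to 4233 CPM in WT B cells, and neutrophil genes to 17.8 to 87.8 CPM in March1-/- and 6.56 to 59.8 CPM in WT B cells. Platelet genes summed to 25.6 to 27.9 CPM in March1-/- and 14.8 to 20.4 CPM in WT B cells, without overlap. Xist, transcribed from the inactive X of females, was at 322 to 802 CPM in March1-/- and 427 to 1082 CPM in WT B cells, and the Y-linked gene Ddx3y at 35.1 to 81.1 CPM in March1-/- and 43.4 to 85.7 CPM in WT B cells, so RNA of both sexes was present in each of the 8 libraries.

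Genes on chromosome 8 were set apart because they are linked to the March1 locus, where a chromosome segment can be inherited along with a mutant allele. For these genes such a segment and the mutation itself cannot be told apart. The share called was higher within 10 Mb of March1 than farther away. Within 5 Mb 23 of 109 genes were called (21.1%), between 5 and 10 Mb 18 of 76 (23.7%), between 10 and 20 Mb 15 of 149 (10.1%), between 20 and 40 Mb 26 of 247 (10.5%) and beyond 40 Mb 14 of 382 (3.66%). The last share is below that off chromosome 8. Rises and falls were about equal in number within 20 Mb, with 29 and 27. The 5 Mb windows of this chromosome with the largest shares called, among those with 10 or more tested genes, were at 35 to 40 Mb and 30 to 35 Mb of the chromosome, where 6 of 11 and 8 of 23 genes were called. The window from 70 to 75 Mb held 34 called genes among 118.

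**Figure D4:**
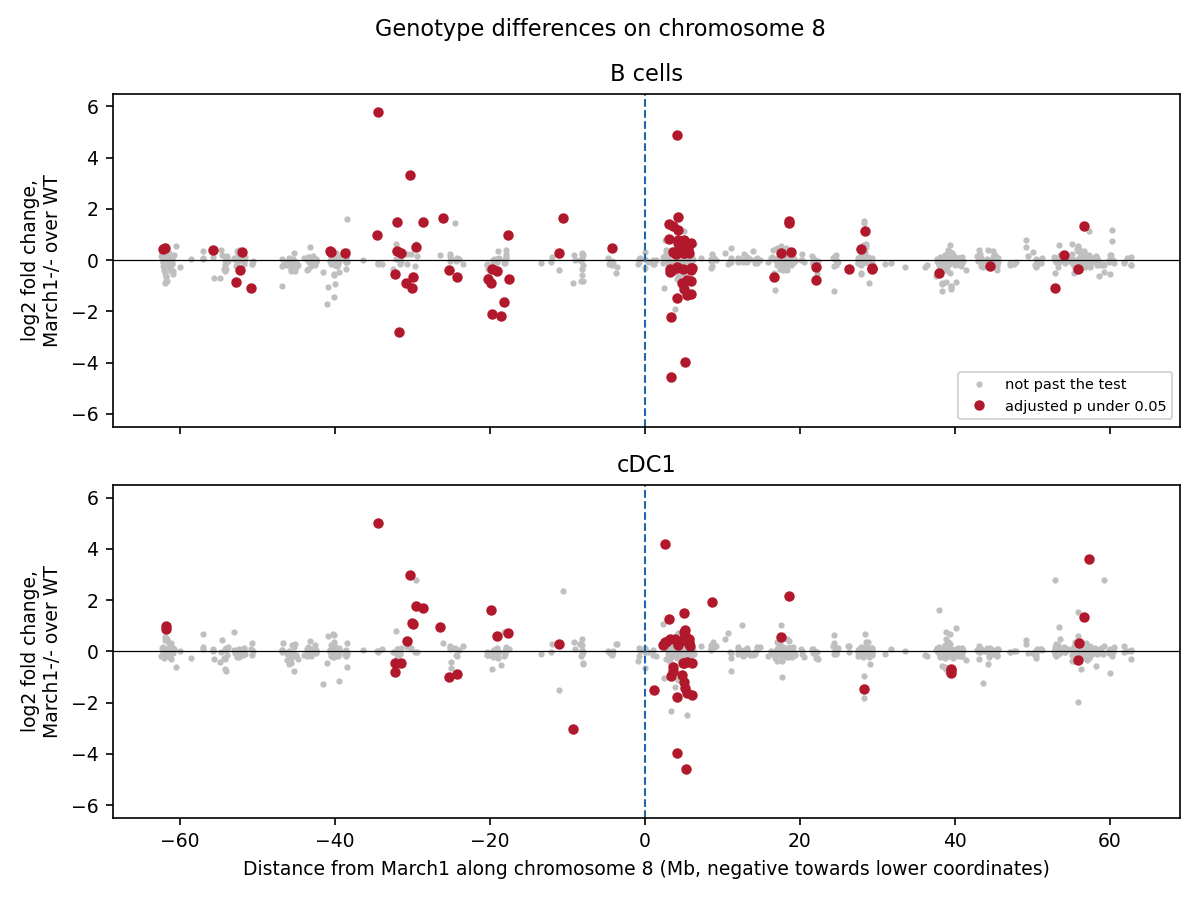
Log2 fold change of March1-/- over WT for each tested gene of chromosome 8 by its distance from March1 in Mb (negative towards lower coordinates, dashed line at March1), in B cells (upper panel) and cDC1 (lower panel), with genes past the test in red. Called genes crowd just above March1 and about 30 Mb below it in both panels, and beyond 40 Mb 14 genes were called in B cells and 6 in cDC1.

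The largest chromosome 8 rise by the naming rule was Ppp1r3b (chr8:35375739-35388139), which encodes a subunit that directs protein phosphatase 1 to glycogen and lies 30.2 Mb from March1. It was at 9.14, 9.08, 7.901 and 8.76 CPM in March1-/- and 1.13, 0.601, 1.11 and 0.5999 CPM in WT B cells (3.33 ± 0.17, edgeR adjusted p = 9.29e-12). In cDC1 it was at 4.28 to 5.73 CPM in March1-/- and 0.514 to 0.773 CPM in WT (2.97 ± 0.19, edgeR adjusted p = 4.93e-10), and B cells minus cDC1 was 0.36 ± 0.27 (edgeR adjusted p = 0.723). Zfp868, a zinc finger gene 3.14 Mb from March1, rose in both cell types as well, to 70.7, 70.5, 66.1 and 64.998 CPM in March1-/- B cells, against 25.5, 25.8, 26.2 and 24.5 CPM in WT B cells (1.42 ± 0.05, edgeR adjusted p = 9.87e-14), and by 1.28 in cDC1 (edgeR adjusted p = 1.6e-12). The groups of each of these genes were far apart.

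Gsr, which encodes glutathione reductase, was at 12.8, 11.7, 10.6 and 13.4 CPM in March1-/- and 3.83, 4.84, 4.64 and 3.82 CPM in WT B cells (1.497 ± 0.11, edgeR adjusted p = 4.82e-09). In cDC1 it was at 38.97 to 47.1 CPM in March1-/- and 46.7 to 60.1 CPM in WT and did not pass the test (−0.25 ± 0.09), and the difference between the cell types did (1.75 ± 0.14, edgeR adjusted p = 1.47e-07). The ubiquitin ligase gene Rnf122 rose in B cells (0.99 ± 0.10) with a difference from cDC1 of 0.99 (edgeR adjusted p = 0.000348). Wwc2, a regulator of the Hippo pathway, rose in both (0.99 in B cells and 0.69 in cDC1, edgeR adjusted p = 0.000279 and 0.00734). Fut10, a fucosyltransferase family gene, had 75, 66, 71 and 89 counts in the March1-/- libraries, against 1, 2, 2 and 1 in the WT libraries, a ratio of 60.3 after scaling (95% counting interval 27.4 to 166). Its level in cDC1 was 7.96 to 8.64 CPM in March1-/- libraries and 0.0395 to 0.442 CPM in WT libraries.

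**Figure D5:**
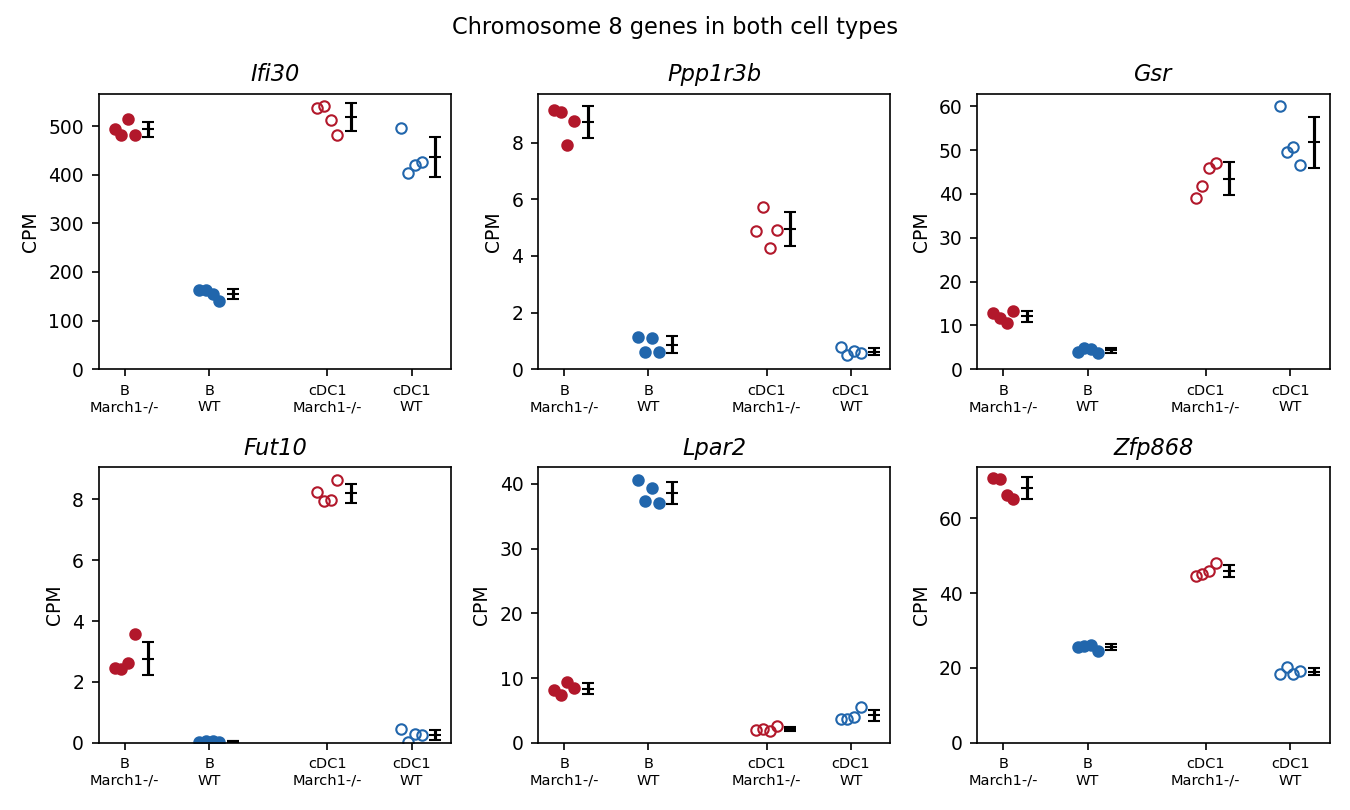
CPM of 6 chromosome 8 genes in March1-/- (red) and WT (blue) libraries of B cells (filled) and cDC1 (open), with the mean and SD over 4 libraries. Ppp1r3b, Fut10 and Zfp868 are higher in March1-/- libraries of both cell types, Lpar2 is lower in both, and Ifi30 and Gsr rose in B cells and did not pass the test in cDC1.

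Among chromosome 8 falls Lpar2, a receptor of lysophosphatidic acid, was at 8.19, 7.35, 9.39 and 8.48 CPM in March1-/- and 40.7, 37.3, 39.4 and 37.1 CPM in WT B cells (−2.21 ± 0.11, edgeR adjusted p = 9.29e-12). It also fell in cDC1 (−0.97 ± 0.14, edgeR adjusted p = 0.000113), by less (−1.24 ± 0.18 for B cells minus cDC1, edgeR adjusted p = 0.000233). 1700029J07Rik was at 1.87, 1.84, 2.23 and 1.56 CPM in March1-/- and 7.404, 6.55, 8.604 and 9.88 CPM in WT B cells (−2.11 ± 0.16, edgeR adjusted p = 7.92e-09). Lrrc25, a leucine-rich repeat membrane protein gene, fell to 1.97 to 3.12 CPM in March1-/- B cells, against 5.65 to 8.62 CPM in WT B cells (−1.46 ± 0.17, edgeR adjusted p = 9.86e-06). It stood at 60.8 to 71.05 CPM in WT cDC1, and the part of cDC1 RNA in its fall was not tested. Sorbs2, a cytoskeletal adaptor (−0.89), and Dusp4, a phosphatase of MAP kinases (−0.88), fell by less. Of these 5 genes, Lrrc25 and Sorbs2 differed between the cell types (edgeR interaction adjusted p = 0.000169 and 0.00348), as did 1700029J07Rik (edgeR interaction adjusted p = 0.0303), whereas Dusp4 did not pass that test. Sorbs2 rose in cDC1 (1.61 ± 0.44, edgeR adjusted p = 0.0471), at the low levels of 0.183 to 0.566 CPM in March1-/- and 0.0922 to 0.158 CPM in WT.

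Outside chromosome 8, clusters of called genes were found in a few places, which were picked after their values were seen. On chromosome 2 between 175 and 180 Mb, 16 of 55 genes were called, all of them lower, and 14 of the 16 were called lower in March1-/- cDC1 too. They are zinc finger genes and predicted genes of a repeated cluster, such as Zfp966 at 5.73, 7.57, 6.57 and 10.04 CPM in March1-/- and 14.2, 13.98, 15.6 and 16.2 CPM in WT B cells (−1.01 ± 0.24, edgeR adjusted p = 0.0164, up to 0.0687 with 1 library left out). Counts of Zfp967 and Zfp969, and of Gm2007 and Gm11007, differed by less than 2% over the 20 libraries of the series, so reads of near-identical copies cannot be assigned to 1 of them.

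On chromosome 14 between 65 and 70 Mb, 13 of 46 genes were called, 11 of them lower, and 1 of the 13 was also called in cDC1. Entpd4, a nucleotide phosphohydrolase of the Golgi and lysosomes, was at 28.96, 28.5, 27.2 and 31.8 CPM in March1-/- and 60.3, 54.1, 60.2 and 66.02 CPM in WT B cells (−1.05 ± 0.10, edgeR adjusted p = 4.23e-07), and counts of its copy Entpd4b differed by 0.0695%. In cDC1 Entpd4 had a log2 fold change of 0.11 ± 0.11 (interaction −1.16 ± 0.14, edgeR adjusted p = 5.37e-05). Gm16867, which shares 35.9% of its exon bases with genes on the opposite strand there, fell to 16.4 ± 0.761 CPM in March1-/- B cells, against 45.04 ± 2.41 CPM in WT B cells (SD, n = 4 each; −1.45, edgeR adjusted p = 1.46e-09). Gm21451, an annotated pseudogene in the same stretch, had no count in any March1-/- B cell library, against 47, 42, 59 and 42 counts in the WT libraries, and was at least 52.7-fold lower with a floor of 3 counts over the group. Loxl2, a lysyl oxidase family gene, had 0, 3, 1 and 1 counts in March1-/- B cells, against 48, 40, 57 and 43 in WT B cells, a WT to March1-/- ratio of 31.3 (95% counting interval 13.2 to 97.4). Elsewhere, Pkd1l1, a polycystin family gene on chromosome 11, had 33, 34, 52 and 20 counts in March1-/- B cells, against 0, 1, 2 and 0 in WT B cells (ratio 55.7, 18.7 to 274).

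The end of the X chromosome and the Y chromosome shared a pattern. Mid1 (chrX:169685199-170005736), a microtubule-associated ubiquitin ligase gene that crosses the boundary of the pseudoautosomal region in this mouse strain, was at 7.34, 4.85, 6.12 and 4.64 CPM in March1-/- and 35.7, 22.8, 22.7 and 40.4 CPM in WT B cells (−2.4 ± 0.22, edgeR adjusted p = 1.02e-06). It fell in cDC1 as well (−1.66 ± 0.22, edgeR adjusted p = 7.12e-05). On the Y chromosome 5 of 11 tested genes fell, all 5 also in cDC1, namely Mid1-ps1 (−2.69), Gm21742 (−2.42), Gm21748 (−2.07), Gm21860 (−2.06) and Gm47283 (−1.25), and Gm21887 on the X chromosome fell by 1.23 on the log2 scale. Gm47283 was at 57.6, 42.9, 67.7 and 79.3 CPM in March1-/- and 173, 125, 111 and 181 CPM in WT B cells, and Ddx3y, elsewhere on the Y chromosome, had a log2 fold change of −0.18 ± 0.32. Mid1 shares 17.9% of its exon bases with genes on the opposite strand, and copies of this region on X and Y are alike, so the counts of single entries are uncertain.

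The B cell differences were set beside those of cDC1, which share no library with them. In March1-/- cDC1 536 genes were called against WT cDC1 (2.86%). Of the 890 genes called in B cells, 128 were called in cDC1 (14.4% of the B cell calls and 23.9% of the cDC1 calls), 105 of them in the same direction. On chromosome 8, 29 of 96 were shared, 24 in the same direction. The test of the difference itself, the interaction of genotype and cell type, called 441 genes (2.36%), of which 238 were among the 890. Libraries were taken as unpaired here, and the labels do not say whether same-numbered libraries share animals. With a replicate block by number within each genotype, chosen after seeing the data, the interaction called 978 genes.

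Several named B cell genes had the opposite sign in cDC1. Cr2 rose in cDC1 to 29.1 to 40.8 CPM in March1-/- cDC1, against 10.3 to 13.4 CPM in WT cDC1 (1.599 ± 0.16), so that B cells minus cDC1 was −2.18 ± 0.21 (edgeR adjusted p = 3e-06). S1pr3 (−2.54 ± 0.25, edgeR adjusted p = 4.6e-06) and S1pr1 (−1.41 ± 0.18, edgeR adjusted p = 6.43e-05) also fell in B cells and rose in cDC1. Each of these 3 genes stood far lower in cDC1 than in B cells, and the summed level of the pan B cell genes given above was higher in every March1-/- cDC1 library than in any WT cDC1 library. Ms4a1, a member of that list, was not higher in March1-/- cDC1 (−0.15 ± 0.08). The part of B cell RNA in the cDC1 rises was not tested. Egr3 rose in B cells (0.53) and fell in cDC1 (−0.97, edgeR adjusted p = 0.001; interaction adjusted p = 0.000514). Gm3336 on chromosome 8, named after its values were seen, was at 0.185 to 0.524 CPM in March1-/- and 0 to 0.0316 CPM in WT B cells, whereas in cDC1 it was at 0.878 to 2.04 CPM in March1-/- and 19.9 to 23.1 CPM in WT (B cells minus cDC1 8.84 ± 0.66, edgeR adjusted p = 1.01e-07).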

How the data were processed

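RNA of sorted spleen cells was sequenced on 2 lanes per library. The authors deposited raw counts per gene for 20 libraries in 5 groups, and the lane files summed to the series table in all 566760 values compared. Per the submitters' processing notes CASAVA, FastQC, STAR, Subread, edgeR and limma were used with GRCm38 (mm10). Versions and the strand setting are not given in the sources used here. Of 28338 genes, 28290 matched GENCODE M21, and the other 48 held 0.0414% of counts.

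All 20 libraries were fitted at once with edgeR 4.0.16 in R 4.3.3 (filterByExpr by group, TMM factors, robust quasi-likelihood F test, Benjamini-Hochberg adjustment over the 18710 genes kept, which held 99.9459% of counts). Interaction means the B cell minus the cDC1 log2 fold change. Residual degrees of freedom were 15 and the biological coefficient of variation 10.91%. Named genes were the 10 largest rises and falls off chromosome 8 and the 5 on it among called genes annotated as protein coding in GENCODE M21 and averaging 5 CPM or more in their higher group, with no overlap and called in every omission of a library, plus March1, Ms4a1, genes of 39 lists, and genes at 3 counts or fewer in every library of 1 group and at least 1 CPM in the other. Ifi30, which that annotation does not class as protein coding, was left out of the largest rises and is named as a list member. Some genes that the rule or the lists hold are counted but not reported by name here. Members and lists were chosen with earlier results of these data known.

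Replicates differed beyond sampling noise (chi-square per gene 5.132 to 23.258, against 0.989 to 1.023 between lanes). Alternatives were RLE factors, no count filter, the 8 B cell libraries alone, replicate blocks (1 of them, within each genotype, chosen after seeing the data), DESeq2 1.42.0, limma-voom (limma 3.58.1), leaving out immunoglobulin and T cell receptor genes, and leaving out each library. Counting intervals and floors are exact at 95% and cover counting error only.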

Additional observations from a re-analysis of the deposited data

Results flagged for a closer look

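In 11 of 200 groups of 4 libraries, 1 library stood far from the other 3, about as many as chance gives (1 in 20 groups). Low libraries were Iglc2 in WT library 4 (420.1 CPM) and H2-Ob in WT library 1 (572 CPM). High libraries were Nuggc (2.93 CPM) and Mybl1 (5.86 CPM) in March1-/- library 3, Sorbs2 (5.44 CPM) and Ccr6 (77.1 CPM) in March1-/- library 2, S1pr2 (8.57 CPM) and Cplx2 (3.28 CPM) in WT library 2 and Cd86 in WT library 1 (56.4 CPM). Itgam stood apart in March1-/- library 3 (5.42 CPM) and in WT library 1 (7.78 CPM).

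For 31 of the genes described, the March1-/- over WT log2 fold change differed between B cells and cDC1 (edgeR interaction adjusted p under 0.05, values as B cells minus cDC1). It was higher in B cells for Pstpip2 (1.33), Gsr (1.75), Rnf122 (0.99), March1 (0.41), Myb (1.15), H2-Ob (0.41), Ifi30 (1.42), Irf7 (0.47) and Egr3 (1.51). Among marginal zone genes it was lower in B cells for Cr2 (−2.18), Cd9 (−0.76), S1pr3 (−2.54), Asb2 (−1.14), Sema7a (−0.62), Cd36 (−0.62), Dph5 (−0.71) and Tm6sf1 (−0.52). Among receptors and signalling genes it was lower for Cxcr3 (−1.33), S1pr2 (−1.40), S1pr1 (−1.41), Traf1 (−0.68), Hes1 (−0.53) and Flt3 (−0.90). On chromosome 8 it was lower for Lpar2 (−1.24), 1700029J07Rik (−1.43), Lrrc25 (−1.52) and Sorbs2 (−2.50). The others were Gm16867 (−1.23), Gcsam (−1.46), Pgk1 (−0.54) and Pkm (−0.50).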

How the results depend on the processing

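Of 1628 pairs of a named gene and an alternative, 1423 kept direction and side of the threshold, 204 kept direction only and 1 reversed, namely March1, which was never called (−0.0308 without March1-/- replicate 2, −0.0308 to 0.0876 over the 8 omissions). The count of genes called was 815 to 953 with RLE factors, no filter, the B cell libraries alone, limma-voom or no immunoglobulin and T cell receptor genes, and 574 to 879 with 1 library left out (higher 260 to 428, lower 298 to 493). DESeq2 called 1259 genes, 719 higher and 540 lower, and 697 in the interaction, against 441. The interaction count was 313 to 555 with 1 library left out. With a replicate block by number across all groups, 1328 genes were called (672 higher, 656 lower) and 680 in the interaction. With the B cell libraries alone and the block 797 were called, marginal zone falls numbered 6, against 11, and immature rises 4, against 7. With a replicate block by number within each genotype, chosen after seeing the data, the interaction called 978. The labels do not say what the numbers share. Correlations of the deviations of same-numbered libraries were −0.052 to 0.071 between March1-/- and WT B cells. Between B cells and cDC1 of 1 genotype they were 0.088 to 0.315 for the 8 same-numbered pairs, not all above 0.1, and −0.185 to 0.077 for the 24 others, and each B cell library correlated best with its own number, a hint from the data and not from the design. Of 528 pairs of a list count and an alternative, 144 moved by over 1.5 times. The cause of these moves was not tested. Depth limits genes near 3 counts, 0.0916 to 0.1316 CPM.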
